A study of Gallus gallus with 4 samples.

Results

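The lipid carriers described here are 10 chicken genes, the apolipoprotein genes APOH, APOA1, APOA4, APOB and APOC3 and the fatty acid binding protein genes FABP1, FABP2, FABP4, FABP5 and FABP7. Their probe sets were found by gene symbol: every probe set whose annotation names 1 gene, and that gene is in this list, was taken. This gave 18 of the 38439 probe sets that are not array controls, for 9 of the 10 genes, and 13009 genes have such probe sets in all. APOC3 matched no probe set and was not analysed here. The series holds 4 arrays of cells lifted from the surface epithelium of the bursa of Fabricius, the cloacal lymphoid organ of birds in which B cells develop. FAE, 2 samples, is the follicle-associated epithelium that caps each lymphoid follicle, collected after 5 min in 40 mM EDTA at room temperature. IFE, 2 samples, is the interfollicular epithelium between the caps, collected after 30 min in 40 mM EDTA at 37 °C. All samples came from Line-M chicks, 19 days old, healthy and specific-pathogen-free, and in all of them the tissue was first soaked in black ink for 5 min and cells were picked with a 29G needle. The EDTA time and temperature moved with the epithelium on every array, so the effects of the treatment and of the epithelium cannot be told apart. The IFE samples carry FAE in their source name, against their titles and cell type label, and the titles were followed.

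Apolipoproteins coat the lipid particles that carry fat and cholesterol through plasma. APOB is the scaffold on which the large particles of liver and intestine are built, APOA1 is the main protein of high-density lipoprotein and takes up cholesterol from cells, and APOA4 and APOC3 are smaller components of triglyceride-rich particles. APOH, also called beta-2-glycoprotein I, is a plasma protein that binds negatively charged phospholipid. Fatty acid binding proteins are small proteins of the cytoplasm that hold fatty acids and hand them to membranes, enzymes and nuclear receptors. In mammals, FABP1 and FABP2 are abundant in absorptive enterocytes (FABP1 also in liver), FABP4 in adipocytes and macrophages, FABP5 in epidermis and macrophages, and FABP7 in glia and their precursors. Bird APOA1 is also known to be made in many tissues beyond liver and intestine.

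Signals below are scaled array signals, in which every array has the same 2% trimmed mean, and they can be compared between arrays for 1 probe set but not between probe sets. The background level of an array is the 95th percentile of 744 unnamed probe sets without the chicken prefix, and was 0.671 and 0.684 in FAE, against 0.721 and 1.02 in IFE. Over all probe sets, log2 signals correlated at 0.929 between the FAE arrays, at 0.897 between the IFE arrays and at 0.870 to 0.894 between an FAE and an IFE array. The 3'/5' signal ratio of beta-actin, a sign of RNA degradation and of amplification length, was 31.2 on IFE replicate 2 and 14.4 to 18.6 on the other arrays. Whether the 2 samples of a group are from different birds is not stated in the labels. The p-values therefore reflect the spread among the 4 samples alone, and that spread may be technical.

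Of the 8 lipid carrier probe sets bright enough to be tested, 5 rose in FAE and none fell (limma, Benjamini-Hochberg adjusted p under 0.05 over 23063 probe sets). In a bulk sample, more cells of a type and more RNA per cell cannot be told apart. The 5 stand for APOH, APOA1 (2 probe sets), FABP5 and FABP7. Among all 23063 tested probe sets, 5.23% were called higher and 693 were called lower. No lipid carrier was lower at an unadjusted p under 0.05 either. The same 5 probe sets had both FAE arrays above both IFE arrays, an order found in 25.4% of all tested probe sets. The 10 other probe sets lay below the signal needed for testing and are described as levels. The number of calls fell to 2 without FAE replicate 1, 3 without FAE replicate 2, 3 without the filter on dim probe sets and 2 without the intensity trend of the test.

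**Figure D1:**
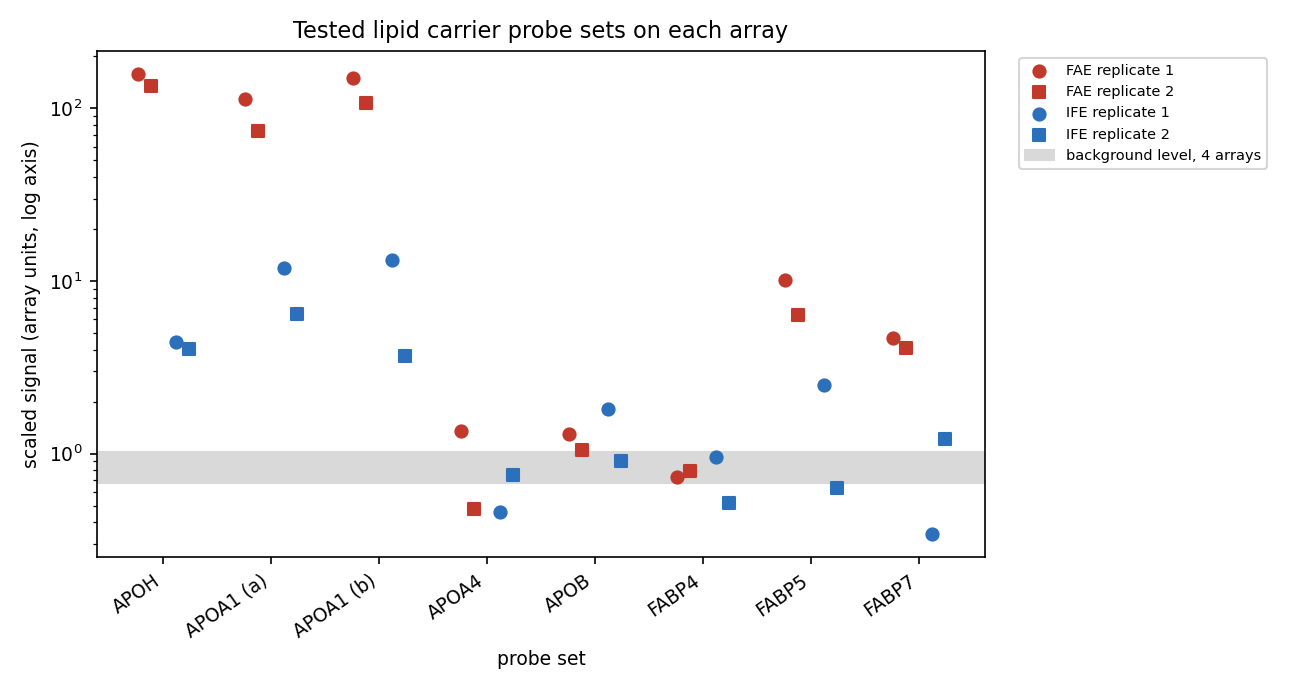
Scaled signal (log axis) of the 8 tested lipid carrier probe sets on each array, with FAE in red and IFE in blue, circles for replicate 1 and squares for replicate 2, and the grey band spanning the background levels of 0.671 to 1.02. APOH and the APOA1 probe sets, where (a) has the suffix _a_at and (b) the suffix _s_at, stand well above the band on all arrays, whereas 1 IFE array of FABP5 and of FABP7 lies under its own background level.

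APOH showed the largest difference of the group. Its probe set had signals of 158 and 135 in FAE, against 4.44 and 4.03 in IFE. The lower FAE array was 30.4 times the higher IFE array, and replicates of either group lay close together. The mean was 147 ± 16.7 in FAE and 4.23 ± 0.287 in IFE (SD, n = 2 each). The log2 fold change, FAE over IFE, was 5.11 (SE 0.24, limma adjusted p = 0.00207), a 34.6-fold difference. Only 23 of the other tested probe sets, or 0.0997%, had a larger increase. The call held under each of 13 alternative analyses, which left out each sample in turn or changed the scaling, filter or test, with log2 fold changes from 4.95 to 5.24. All 4 signals were above background, so no value of APOH lies at the floor.

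APOA1 was measured by a pair of probe sets designed on the same transcript, which may share probes. The first (suffix _a_at) had signals of 113 and 74.2 in FAE, against 11.8 and 6.43 in IFE. The second (suffix _s_at) had 150 and 108 in FAE, against 13.3 and 3.69 in IFE. On both, every FAE signal was at least 6.27 times every IFE signal, and IFE replicate 2 was the lowest array. The log2 fold change was 3.39 (SE 0.36, limma adjusted p = 0.00384) on the first and 4.18 (SE 0.56, adjusted p = 0.00756) on the second, or 10.5-fold and 18.1-fold. IFE replicates differed by 0.88 on the log2 scale on the first probe set and by 1.84 on the second. The first kept its call under all 11 alternatives in which it was tested. The second lost it without FAE replicate 1 (limma adjusted p = 0.0504) and without the intensity trend (0.0566), and its log2 fold change ranged from 3.26 to 5.10.

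In the order of genes that RefSeq gives for the assembly bGalGal1.mat.broiler.GRCg7b, APOA5, APOA4, APOC3 and APOA1 follow each other on 1 chromosome. The brighter APOA4 probe set had 1.34 and 0.479 in FAE, against 0.458 and 0.755 in IFE, and FAE replicate 1 was its single value above background. It did not pass the test (limma adjusted p = 0.768), no fold is given since both IFE arrays were under background, and it passed the filter through that 1 array, since its IFE mean of 0.606 lies below the 0.695 needed. The other APOA4 probe set had 0.111 and 0.160 in FAE, against 0.136 and 0.188 in IFE, all under background. APOA5, which promotes the breakdown of plasma triglyceride, was under background on all arrays as well. On the other side of APOA1, the kinase gene SIK3 had a log2 fold change of -0.38 (limma adjusted p = 0.821), with 1 array of each group above background, and the acetylhydrolase subunit gene PAFAH1B2 of -0.03 (adjusted p = 0.959). Of the protein-coding genes beside APOH, the kinase PRKCA was higher in FAE, with 60.3 and 46.8 against 21.8 and 21.6 in IFE (log2 fold change 1.29, SE 0.24, limma adjusted p = 0.0235), and CEP112 matched no probe set.

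APOB signal was at or near background by all of its probe sets. The brightest of the 7 had 1.30 and 1.05 in FAE, against 1.80 and 0.909 in IFE, so the groups overlapped. Its log2 fold change was -0.13 (95% confidence interval -1.27 to 1.01, limma adjusted p = 0.901). Of the 6 others, 5 were under background on all 4 arrays, and the sixth was above it on FAE replicate 2 alone, at 0.737. MTTP, the transfer protein that loads lipid onto APOB, was under background except on IFE replicate 2, at 1.19, where the background level was 1.02. No difference in APOB was detected by its tested probe set, and MTTP was too dim to be tested.

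**Figure D2:**
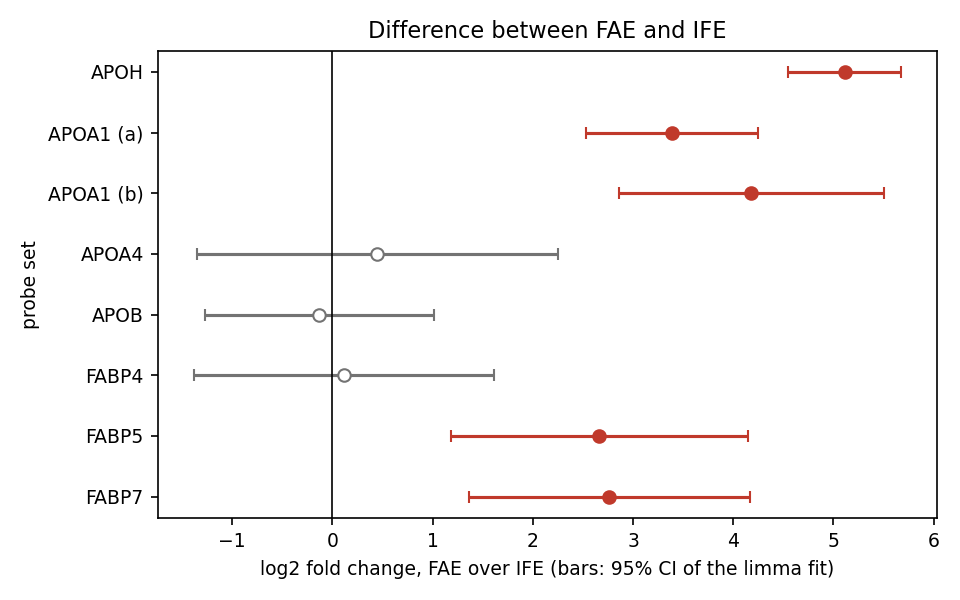
Log2 fold change, FAE over IFE, of the 8 tested lipid carrier probe sets, with 95% confidence intervals of the limma fit; filled red points passed an adjusted p of 0.05. The 5 that passed lie between 2.66 and 5.11, and the intervals of APOA4, APOB and FABP4 span 0. The APOA4 point is the fitted value, with both IFE arrays under background.

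FABP5 and FABP7 were the called fatty acid binding proteins. FABP5 had signals of 10.1 and 6.31 in FAE, against 2.50 and 0.634 in IFE. FABP7 had 4.70 and 4.10 in FAE, against 0.344 and 1.21 in IFE. FAE was the higher group on every array for both, but each had 1 IFE array under background, replicate 2 for FABP5 and replicate 1 for FABP7, so the IFE level is not measured there. The log2 fold change of FABP5 was 2.66 (SE 0.63, limma adjusted p = 0.0481) and that of FABP7 was 2.76 (SE 0.59, adjusted p = 0.0364). Both calls were lost without FAE replicate 1 (limma adjusted p = 0.292 for FABP5 and 0.258 for FABP7) and without FAE replicate 2 (0.107 and 0.149). Both were also lost without the filter (0.0722 for FABP5 and 0.0608 for FABP7) and without the intensity trend (0.140 and 0.110), and FABP5 lost its call with quantile normalization (0.0709) and with the common median (0.0615). Without IFE replicate 1 the log2 fold change was 3.65 for FABP5 and 1.85 for FABP7, and without IFE replicate 2 it was 1.67 and 3.67. A second FABP5 probe set had 0.929 and 0.222 in FAE, against 0.312 and 0.0813 in IFE, above background on FAE replicate 1 alone.

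The mammalian enterocyte genes FABP1 and FABP2 were not above background on any array. FABP1 had 0.0814 and 0.112 in FAE, against 0.134 and 0.279 in IFE, and FABP2 had 0.215 and 0.0138 in FAE, against 0.00976 and 0.110 in IFE. Levels at this floor have no order, and no fold is given. FABP4 had 0.731 and 0.791 in FAE, against 0.956 and 0.518 in IFE, close to background in both groups (log2 fold change 0.11, 95% confidence interval -1.38 to 1.61, limma adjusted p = 0.935). FABP5, FABP9 and FABP4 lie next to each other in the gene table, and FABP9 was under background on all arrays. Suffixes _s_at, _x_at and _a_at mark probe sets that may match more than 1 transcript, which applies to FABP4, FABP5, APOA1, APOA4 and the brightest APOB probe set.

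**Figure D3:**
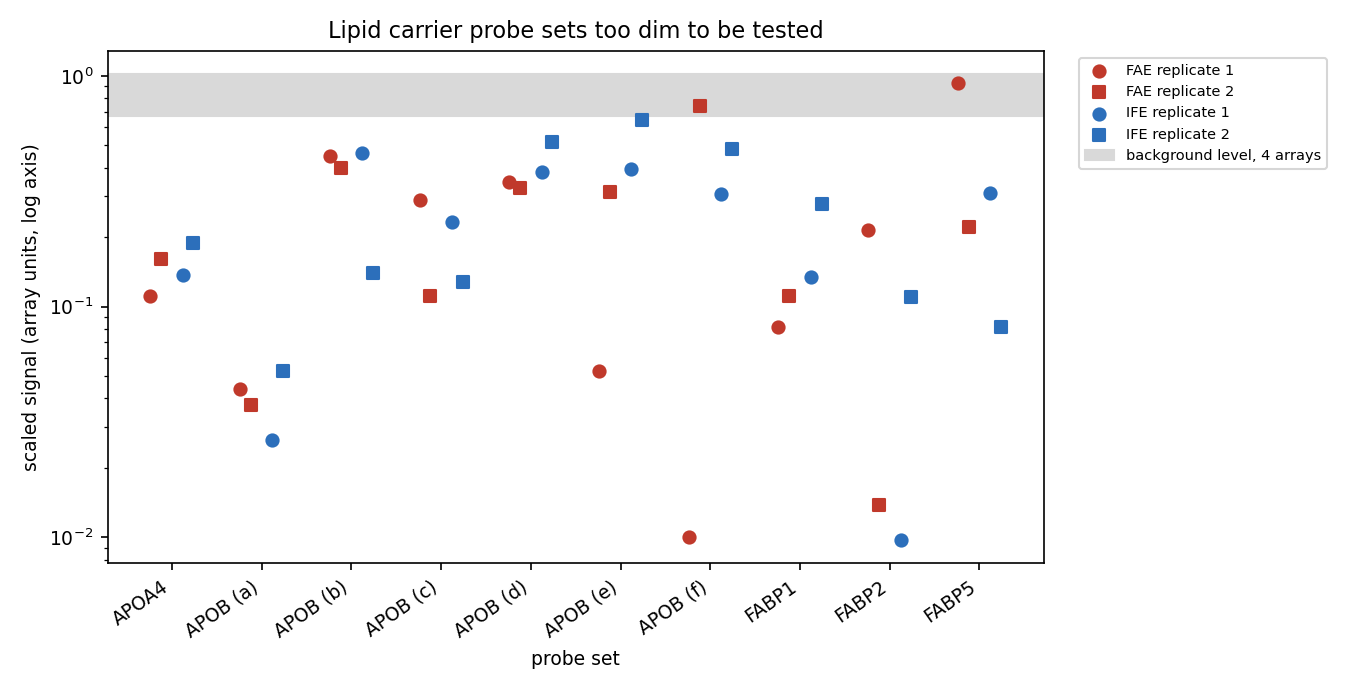
Scaled signal (log axis) of the 10 lipid carrier probe sets that were too dim to be tested, with FAE in red and IFE in blue, circles for replicate 1 and squares for replicate 2, and the grey band spanning the background levels of the arrays. The 8 probe sets of FABP1, FABP2, APOA4 and APOB (a) to (e) lie below the band on all arrays, and 1 FAE value each of APOB (f), at 0.737, and FABP5, at 0.929, reaches it.

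Of 13 other intracellular lipid binding protein genes found on the array, 8 were tested and none was called in either direction (limma). At an unadjusted p under 0.05, 5 were lower and none higher. The share of all tested genes at that unadjusted p is not given. This count and those of later lists are therefore no result about a list. The median log2 fold change of the 8 was -0.93, beside -0.07 over 10398 tested genes. FABP3, the heart and muscle form in mammals, had 7.34 and 10.1 in FAE, against 17.4 and 27.8 in IFE, with a log2 fold change of -1.36 (SE 0.32, limma adjusted p = 0.0508). FABP6, the ileal bile acid carrier in mammals, had 2.68 and 2.84 in FAE, against 5.93 and 5.82 in IFE, with -1.09 (SE 0.27, adjusted p = 0.0541), whereas another FABP6 probe set gave -0.19. For both genes both FAE arrays lay below both IFE arrays, an order found in 30.4% of all tested probe sets. Neither gene passed the threshold. FABP3 passed it in 7 of 13 alternative analyses and FABP6 in 5 of 12, always as lower in FAE. The sterol carrier SCP2 had -0.77 (adjusted p = 0.0589) and the retinoic acid carrier CRABP1 had -1.62 (0.0850). The other members named by rank were the acyl-CoA carrier DBI at -0.73 (0.184) and LBFABP, a liver basic form of birds, which did not pass (0.395) and was above background on IFE replicate 2 alone.

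Among 8 other apolipoprotein genes found on the array, 6 were tested and 1 was called. Clusterin (CLU), a secreted chaperone also named apolipoprotein J, had 12.05 and 7.31 in FAE, against 0.861 and 0.219 in IFE (log2 fold change 4.43, SE 0.64, limma adjusted p = 0.00998), with IFE replicate 2 under background. Its IFE mean of 0.540 is below the 0.695 needed, so it was tested through its FAE signal, and its log2 fold change ranged from 3.32 to 5.42 over 13 alternatives. The mitochondrial inner membrane genes APOO and APOOL had log2 fold changes of -0.17 (limma adjusted p = 0.792) and -0.70 (0.162) on their brightest probe sets. Of the others, 1 gave 2.39 for APOO, with IFE replicate 2 under background, and 1 gave 0.43 for APOOL, and neither passed. APOD, a lipocalin, had -0.14 (0.833), and the vascular gene APOLD1 had 0.01 (0.997). APOV1, a yolk-directed component of very low density lipoprotein in laying hens, was under background in FAE, with 0.371 and 0.427, and had 0.803 and 1.34 in IFE (limma adjusted p = 0.282). APOA2 was under background on all arrays.

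The genes around the carriers were described through 7 lists of lipid transport and metabolism, the other apolipoproteins and binding proteins among them. Of 117 genes found on the array, 92 were tested, of which 10 were higher and 2 lower in FAE, or 10.9% and 2.17%. By the same rule of 1 probe set a gene, 6.31% of all tested genes were higher and 3.93% were lower. The count depends on which arrays are used: it fell without either FAE array and rose without either IFE array. In such a fit the spread comes only from the group that keeps both arrays. On all arrays it was 3 and none without the intensity trend and 6 and 1 without the filter. The median log2 fold change over the 92 genes was -0.16, beside -0.07 over all tested genes.

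**Figure D4:**
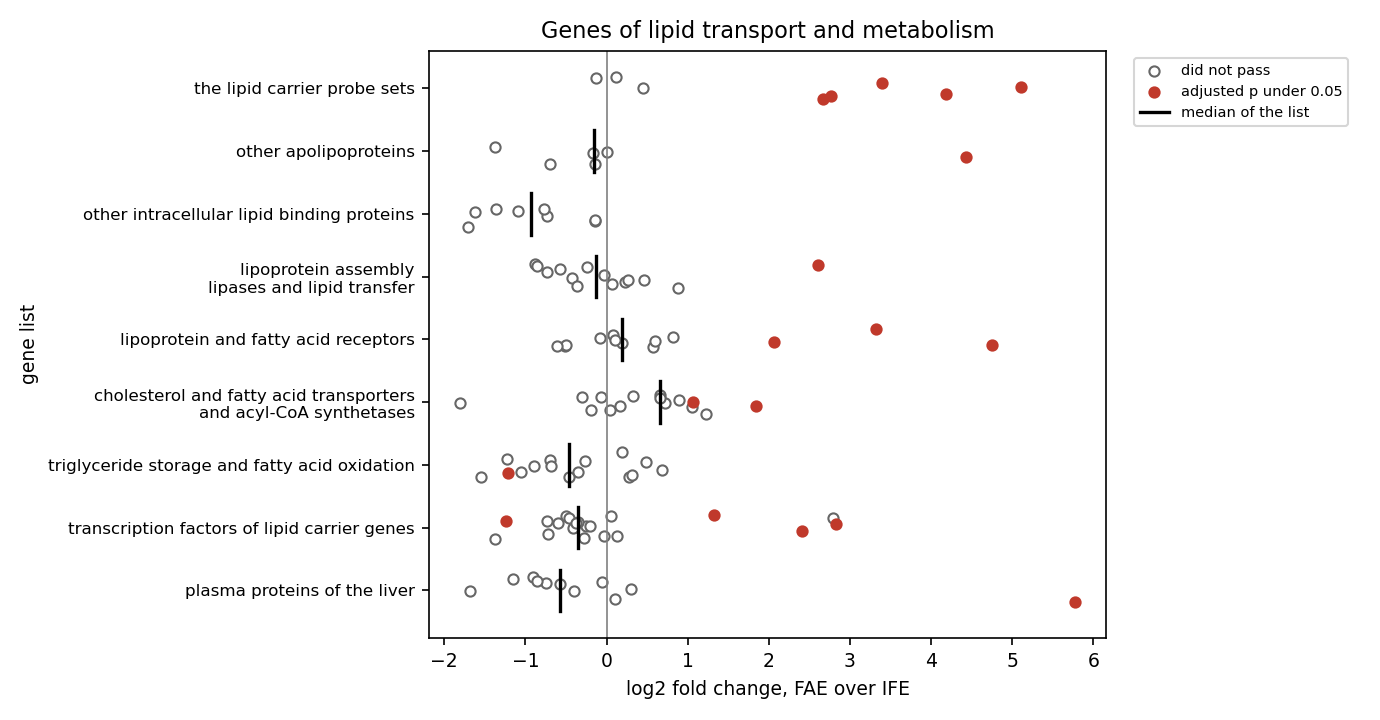
Log2 fold change, FAE over IFE, of the tested lipid carrier probe sets (top row) and of the tested genes of 7 lipid lists and a list of liver plasma proteins, with filled red points for an adjusted p under 0.05 and black bars for list medians. Receptors and transporters hold 5 of the called increases, and the median of the other intracellular lipid binding proteins is -0.93.

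Of 13 tested receptors for lipoproteins and fatty acids, 3 rose in FAE and none fell, with a median log2 fold change of 0.19. The count was 1 with quantile normalization, without the filter, without the intensity trend and without either FAE array, since SCARB1 and LRP8 lost their calls in each of these 5 alternatives, and it was 5 without IFE replicate 1. CD36, a scavenger receptor that takes up fatty acids and oxidised lipoprotein, had 34.1 and 21.5 in FAE, against 3.41 and 2.16 in IFE. Its log2 fold change was 3.32 (SE 0.36, limma adjusted p = 0.00381), a second probe set was called as well (2.85), and the call held in all 13 alternatives. SCARB1, the receptor for high-density lipoprotein, of which APOA1 is the main protein, had 7.79 and 6.70 in FAE, against 0.878 and 0.0813 in IFE (4.76, SE 0.99, limma adjusted p = 0.0334), with IFE replicate 2 under background. SCARB1 was tested through its FAE signal, its IFE mean being 0.480, and its log2 fold change ranged from 3.04 to 6.47 over the alternatives. LRP8, which binds APOH in humans, had 3.94 and 3.62 in FAE, against 1.33 and 0.613 in IFE (2.07, SE 0.44, adjusted p = 0.0355), again with IFE replicate 2 under background. The very low density lipoprotein receptor VLDLR was at 42.3 and 30.1 in FAE, against 31.9 and 35.5 in IFE, and did not pass (log2 fold change 0.08, limma adjusted p = 0.880). LRP2, a large endocytic receptor, was under background on all arrays.

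Of 15 tested cholesterol and fatty acid transporters and acyl-CoA synthetases, 2 were higher and none lower (median 0.66). ACSL4, which activates polyunsaturated fatty acids, had 40.0 and 33.1 in FAE, against 10.9 and 9.46 in IFE (log2 fold change 1.84, SE 0.25, limma adjusted p = 0.00807), and its 2 further probe sets were called too. NPC1, which moves cholesterol out of lysosomes, had a log2 fold change of 1.06 (limma adjusted p = 0.0488) and lost its call in 7 of 13 alternatives, among them the replicate block, the common median, quantile normalization, no filter and no intensity trend. Its partner NPC2 had 1.23 (0.0674) and did not pass. The fatty acid transporter SLC27A1 was under background on both FAE arrays, at least 2.80-fold lower than in IFE, and did not pass (0.0624). ABCA1, the pump that loads cholesterol onto APOA1, was above background on FAE replicate 1 alone, at 1.10. Of the 14 tested genes of lipoprotein assembly, lipolysis and lipid transfer, 1 was called: the lysosomal lipase LIPA, with 68.6 and 49.9 in FAE against 13.2 and 7.001 in IFE (2.61, SE 0.36, adjusted p = 0.00823). The 3 further LIPA probe sets were dimmer and did not pass (limma adjusted p = 0.177, 0.0535 and 0.0595). The log2 fold change was 1.16 on the first and 1.70 on the second, each with IFE replicate 2 under background. On the third both IFE arrays were under background, so no fold is given. Lipoprotein lipase (LPL) had 1.92 and 1.43 in FAE, against 1.33 and 1.502 in IFE, and the groups overlapped.

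Triglyceride storage and fatty acid oxidation genes had 1 of 15 tested members lower in FAE and none higher (median -0.46). EHHADH, an enzyme of peroxisomal beta-oxidation, had 12.4 and 15.2 in FAE, against 33.6 and 30.3 in IFE (log2 fold change -1.22, SE 0.25, limma adjusted p = 0.0311), while the log2 fold changes of -0.63 and -0.55 on its further probe sets did not pass. MOGAT2, which rebuilds triglyceride in the intestine of mammals, had -1.55 (limma adjusted p = 0.0522) on its brightest tested probe set. Another MOGAT2 probe set had 1.09 and 1.11 in FAE and was under background on both IFE arrays. It did not pass (limma adjusted p = 0.328), and no fold is given. The lipid droplet coat PLIN2 had -0.69 (0.159).

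Among 21 tested transcription factors that act on lipid carrier genes, 3 were higher and 1 lower in FAE (median -0.35). SREBF2, the activator of cholesterol synthesis, had 65.4 and 44.8 in FAE, against 11.4 and 5.14 in IFE (log2 fold change 2.82, SE 0.41, limma adjusted p = 0.0101). PROX1, a homeobox factor of liver and lymphatic endothelium, had 24.8 and 17.8 in FAE, against 3.60 and 4.31 in IFE (2.41, SE 0.29, adjusted p = 0.00525). NR1H3, the oxysterol receptor LXR alpha, had 1.33 (limma adjusted p = 0.0492). It lost its call in 5 of 13 alternatives, among them the common median, no filter and no intensity trend. Its other probe set was under background on both IFE arrays and did not pass (limma adjusted p = 0.0836), so no fold is given. CEBPB, a factor of acute phase and adipocyte genes, had 23.3 and 21.3 in FAE, against 41.6 and 66.1 in IFE, and fell by 1.24 on the log2 scale (adjusted p = 0.0457). PPARA, the fatty acid receptor that drives fatty acid oxidation genes, had -1.37 (0.0542). HNF4A, the main activator of apolipoprotein genes in liver and intestine, had 1.08 and 1.05 in FAE, against 2.03 and 0.972 in IFE. Its signals were low, with IFE replicate 2 alone under background, and it did not pass (log2 fold change -0.40, limma adjusted p = 0.668).

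Of the 12 list genes called here, CD36 alone kept its call without FAE replicate 1. Without FAE replicate 2, CD36, CLU, LIPA, SREBF2 and PROX1 kept theirs. With the common median, EHHADH and CEBPB, the pair called lower, lost their calls as well. The signals of the groups themselves did not overlap for any of the 12 genes on the full set of arrays. Among all tested probe sets, 25.4% had both FAE arrays above both IFE arrays and 30.4% had both below. For genes already called, this order adds no support.

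APOH is known as a liver plasma protein. Of 20 other plasma protein genes of the liver found on the array, 11 were tested and 1 was higher: SPP2, a secreted phosphoprotein, with 34.7 and 26.7 in FAE against 0.908 and 0.339 in IFE (log2 fold change 5.78, SE 0.48, limma adjusted p = 0.00232). IFE replicate 2 was under background, and SPP2 was tested through its FAE signal, since its IFE mean of 0.624 is below the 0.695 needed. Its call held in all 12 alternatives that tested it, with log2 fold changes from 4.83 to 6.49. None was called lower, and 3 were lower at an unadjusted p under 0.05. Albumin (ALB) had 0.807 and 0.790 in FAE, against 0.920 and 0.597 in IFE, close to background. FGB, AHSG, AMBP, F2, ITIH3 and RBP4 were under background on all arrays. Transferrin (TF) had 192 and 304 in FAE, against 457 and 449 in IFE (-0.91, adjusted p = 0.0669), and vitronectin (VTN) had 49.5 and 74.0 in FAE, against 161 and 74.6 in IFE (-0.86, adjusted p = 0.238).

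Many macrophage, dendritic cell and B cell markers were called higher in FAE, as APOH, APOA1, FABP5, FABP7 and CD36 were. A shared difference between the groups does not link these genes to each other. Of the 11 tested macrophage and dendritic cell markers, 8 were higher in FAE and none lower (median log2 fold change 3.27), and the summed signal of the 14 found was 1219 and 1160 in FAE, against 381 and 218 in IFE. Of 13 tested B cell markers, 9 were higher and none lower (median 2.71), with summed signals of 1156 and 1434 in FAE, against 727 and 819 in IFE. Among all tested genes, 6.31% were higher. On all arrays, the macrophage count was 7 without the intensity trend and 8 with quantile normalization. The B cell count was 5 and 11 in these settings. XCR1 and CXCR5 were under background on all arrays. Of the 3 macrophage markers that did not pass, MARCO had log2 fold changes of -0.74 to -0.50 over the alternatives. Those of LY86 (1.16 to 1.91) and CTSS (0.29 to 1.27) were positive. Of the 4 B cell markers that did not pass, PAX5 had -1.25 to -0.45 and EBF1 1.63 to 3.65. BLB1 had 0.05 to 0.86 and CD74 -0.04 to 0.72. The largest macrophage difference was that of C1QA, a complement subunit, with 59.3 and 41.8 in FAE, against 0.651 and 2.57 in IFE. C1QA was under background on IFE replicate 1, so its IFE level is not measured there. The part of these cells in the lipid carrier signals was not tested.

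**Figure D5:**
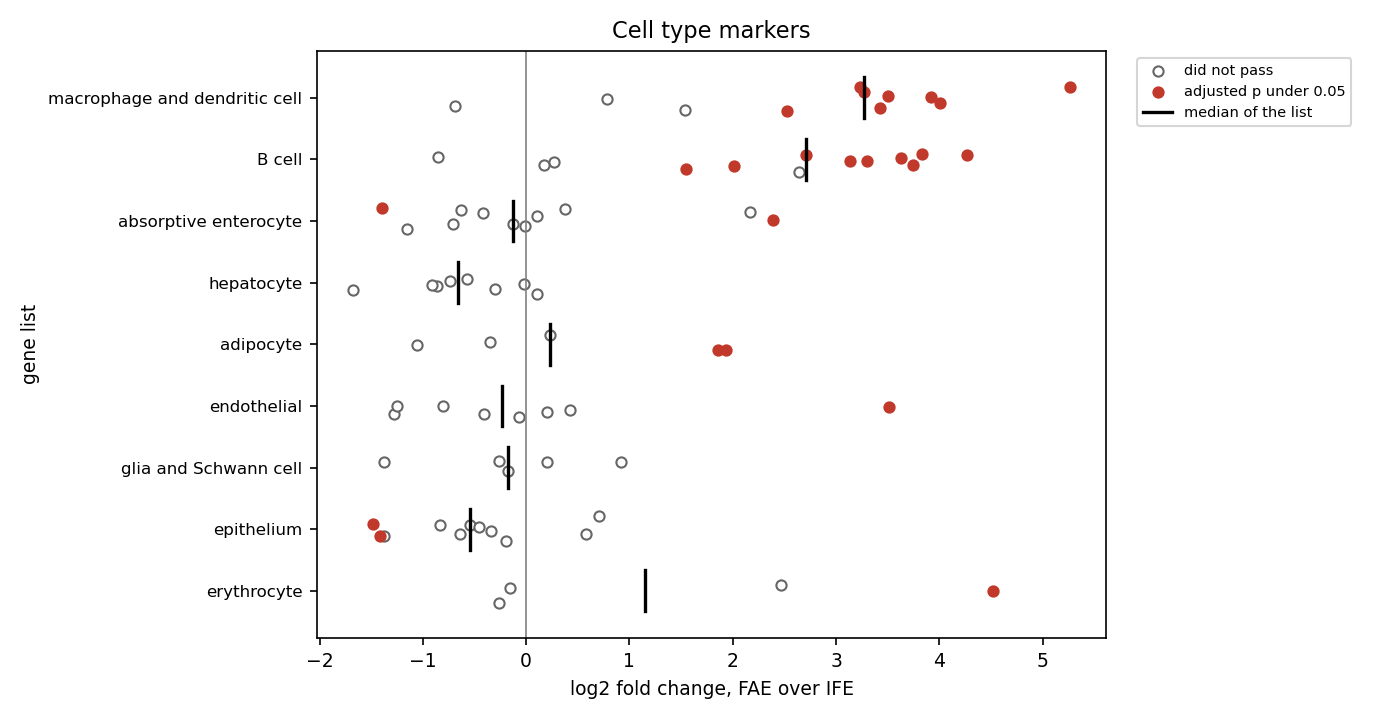
Log2 fold change, FAE over IFE, of the tested genes of 9 marker lists, with filled red points for an adjusted p under 0.05 and black bars for list medians. Macrophage and dendritic cell markers and B cell markers have medians of 3.27 and 2.71, whereas the hepatocyte and epithelium medians are -0.66 and -0.55.

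None of 8 tested hepatocyte markers was called in either direction (limma), with 3 lower and none higher at an unadjusted p under 0.05, and 6 of the 16 found were under background on all arrays, among them FGB, AHSG, AMBP and F2. The summed signal of the hepatocyte list was 251 and 390 in FAE, against 633 and 539 in IFE, carried mostly by TF and VTN. Of its tested genes, ALB, TTR, FGG, PLG, TF and VTN are also among the liver plasma proteins above, so the lists are not separate results. Of 11 tested markers of absorptive enterocytes, the microvillus protein VIL1 was higher in FAE (log2 fold change 2.39, limma adjusted p = 0.00853). The cadherin CDH17 was lower (-1.40, limma adjusted p = 0.0401). Both lost their calls without the intensity trend, and CDH17 also with the common median, quantile normalization and no filter. The summed signal of the enterocyte list was 113 and 140 in FAE, against 216 and 204 in IFE. Of the 15 enterocyte markers found, 14 were above background on at least 1 array. RBP2 alone was under background on all arrays, as FABP1 and FABP2 were. Of 5 tested adipocyte markers, ADIPOQ, the adiponectin gene, was higher, with 4.40 and 3.53 in FAE against 0.978 and 1.09 in IFE (limma adjusted p = 0.0165). The fatty acid synthase FASN was higher too (0.00802), and both genes lost their calls without the intensity trend. The adipocyte list summed to 36.7 and 30.1 in FAE, against 12.9 and 12.6 in IFE, carried mostly by FASN. The 3 other tested adipocyte markers were dimmer and did not pass. PLIN1 had a log2 fold change of -1.06 (limma adjusted p = 0.235) and LPL of 0.23 (0.750). CIDEA ranged from -0.85 to 0.15 over the alternatives.

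No tested marker of glia and Schwann cells was called among 5 (limma), with 1 higher and 1 lower at an unadjusted p under 0.05, and the 6 found summed to 6.48 and 7.48 in FAE, against 6.10 and 7.76 in IFE. Endothelial markers had 1 of 8 higher, CDH5 (3.52, limma adjusted p = 0.00255), and TEK, TIE1 and LYVE1 were under background on all arrays. Of 4 tested erythrocyte markers, 1 was higher, the globin gene HBA1, with 3.85 and 6.01 in FAE. It was under background on both IFE arrays, a difference of at least 5.62-fold (limma adjusted p = 0.00524). HBA1 was tested through its FAE signal, its IFE mean being 0.220. It lost its call in 2 of 12 alternatives, those without an FAE array. HBAD was also under background on both IFE arrays and did not pass (limma adjusted p = 0.123). SLC4A1 and EPB42 had log2 fold changes of -0.16 (0.955) and -0.26 (0.855). HBE, HBZ and GYPC were under background on all arrays. Markers of epithelium, the labelled tissue, were present on every array, with EPCAM at 315 and 413 in FAE, against 501 and 554 in IFE. Of 11 tested, none was called higher in FAE and 2 were called lower, the epithelial factor ELF3 (-1.48, limma adjusted p = 0.00907) and the desmosome gene PKP2 (-1.41, adjusted p = 0.01001). At an unadjusted p under 0.05, 6 were lower and 1 higher. The 11 summed to 1106 and 1349 in FAE, against 1837 and 1999 in IFE.

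The genes whose profile over the 4 arrays lay nearest to that of APOH, by Euclidean distance of centred log2 signals, were LOC421856 (distance 0.511), MHCY4 (0.602), MYO1F (0.624), HAPLN2 (0.631) and UGT8L (0.706). MYO1F, a myosin of leukocytes in mammals, had 81.5 and 65.0 in FAE, against 3.74 and 2.35 in IFE. MHCY4, a gene of the chicken MHC-Y region, had 45.7 and 43.0 in FAE, against 2.19 and 1.28 in IFE. The other 3 were under background on both IFE arrays, so their profiles there have no order. UGT8L was at least 5.98-fold and LOC421856 at least 4.40-fold higher in FAE, and HAPLN2, a hyaluronan link protein gene, did not pass (limma adjusted p = 0.0972). These 3 were tested through their FAE signal, since their IFE signals lie below the 0.695 needed. All the genes named here were chosen for a profile like that of APOH. Their higher signal in FAE follows from that choice and is no separate result.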

How the data were processed

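RNA of 2 FAE and 2 IFE samples was amplified by a 2-cycle protocol, biotin-labelled and hybridised to a chicken Affymetrix array, per the labels. The deposited values are linear intensities, 1 per probe set and array, which the authors computed by MAS5, as the submitters' processing notes list it. The sources used here name neither its version nor its settings. Medians of the 4 deposited columns are 1 and minima 0.01. Detection calls were not used. For this work the arrays were set to 1 shared 2% trimmed mean, and log2 values with no offset were tested. Of 38439 probe sets that are not controls, 23063 with a mean scaled signal of at least 0.695 (the 40th percentile) were tested. The test of FAE over IFE was that of limma 3.58.1 under R 4.3.3 (lmFit, eBayes with an intensity trend, two-sided, Benjamini-Hochberg over all tested probe sets). The script was tested on simulated data. The number of arrays limits the precision.

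Symbols came from the platform annotation through its gene ID (315 IDs were missing from the gene table and kept the old symbol). A list gene was represented by the brightest of its tested probe sets, by mean log2 signal. Where a probe set was under background on both arrays of 1 group, the text gives a bound ("at least") or no fold, and the figures show the fitted value. The members and lists were chosen with earlier results of these data known. Named genes were all members, up to 6 of each list by adjusted p, marker lists where described, and the 5 genes nearest to the called member with the largest increase. Genes outside that rule, such as VLDLR, LRP2, ABCA1, LPL, MTTP, HNF4A and the chromosomal neighbours, were named after their values were seen. Alternatives were the common median, quantile normalization, no filter, a stricter filter, an offset of 0.5, no intensity trend, 1 probe set a gene, a replicate block, each sample left out, and no probe sets that may cross-hybridise.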

Additional observations from a re-analysis of the deposited data

How the results depend on the processing

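APOH kept its call under all 13 alternatives, and no lipid carrier was called lower under any of them. Of 92 values of single lipid carriers under an alternative, 76 kept direction and side of the threshold, 12 kept direction and lost the call, and 4 changed direction, all 4 of APOB or FABP4, which were not called. The number called higher in FAE, 5 as reported, was 3 without the filter on dim probe sets, 2 without the intensity trend, and 2 with possibly cross-hybridising probe sets left out, where only APOH and FABP7 were tested. It ranged from 2 to 5 when 1 sample was left out, lowest without FAE replicate 1. APOB, at -0.13, was 0.0127 with quantile normalization and ranged from -0.62 to 0.36 with 1 sample left out; FABP4, at 0.11, ranged from -0.33 to 0.17. Over all probe sets, 1206 were higher and 693 lower, against 449 and 102 without the intensity trend and 724 and 504 with 1 probe set a gene, where fewer probe sets were tested. With 1 sample left out the counts ranged from 171 to 3602 higher and from 38 to 2498 lower, both lowest without FAE replicate 1 and highest without IFE replicate 1. The median log2 fold change of all tested probe sets was -0.07 as reported and 0.06 with the common median. Deviations of same-numbered samples from their group means correlated at 0.025. With 2 samples a group this value cannot decide whether same-numbered samples share a bird or a batch. With a replicate block the same 5 lipid carrier probe sets were called, and 1541 probe sets were higher and 1078 lower. The cause of these changes was not tested. Probe sets near background and 2 samples a group limit the precision.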
